A study of Mus musculus with 4 samples.

Results

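Peptide hormones and neuropeptides were followed in single-cell RNA sequencing libraries of the mouse fetal pancreas as a set of 53 genes, of which 51 were among the 29652 genes held by any complete gene list of the series. The members were taken by their symbols: 8 islet hormones, 11 gut peptides, 22 hypothalamic and other neural peptides, 9 vascular peptides, and 3 relaxin-family peptides known from reproductive organs. The cells came from C57BL/6 embryos at E13.5 or E15.5 and were sorted after labelling for the epithelial surface protein EpCAM. Embryos of both genotypes carried the floxed Setd2 allele (Setd2 f/f), and the KO embryos also carried Pdxcre, a Cre recombinase driven from the Pdx promoter, so that deletion is limited to cells that expressed it. Setd2 encodes the enzyme that trimethylates lysine 36 of histone H3. There was 1 library for each of the 4 groups, WT and KO at either age, and the number of embryos behind each is not stated.

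The data for each gene are whether a library's list holds it. No count or level was analysed here and the sequencing depth is unknown, so a gene that is not listed may have been missed, and a gene that is listed may come from few or many cells. With 1 library per group there is no replicate error, no test was possible, and every difference below is a difference between libraries. The E15.5 WT list ends after 167 genes, and 2 of the 53 members, Ins2 and Gcg, have identifiers within the stretch it covers. The other 51 lie beyond its end and were not analysed in that library. Complete lists were those of both genotypes at E13.5 and of KO at E15.5.

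Peptide hormones are made as longer precursors that enter the secretory pathway, are cut at basic residues by prohormone convertases and trimmed by carboxypeptidase E, and are stored in dense-core granules until release. In the pancreas, islet cells are classed by the hormone they make: insulin in beta cells, glucagon in alpha cells, somatostatin in delta cells, pancreatic polypeptide in PP cells and ghrelin in the epsilon cells of the fetal organ. Many of the other peptides are known from enteroendocrine cells, neurons, endothelium or the heart.

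Most peptide genes were listed in every complete library. Of the 53 members, 48 were listed in E13.5 WT (90.6%) and 46 in each KO list (86.8%). Among all 22028 annotated protein-coding genes 77.7% were listed in E13.5 WT, 77.9% in KO at E13.5 and 75.9% in KO at E15.5. In all 3 complete lists stood 43 members (81.1%, against 72.8% of protein-coding genes), 8 were in 1 or 2 of them (15.1%, against 8.67%), and 2, Vip and Insl3, were in none (3.77%, against 18.5% of protein-coding genes). By class, 8 of 8 islet, 10 of 11 gut, 16 of 22 hypothalamic and neural, 7 of 9 vascular and 2 of 3 relaxin-family members were in all 3 lists.

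**Figure D1:**
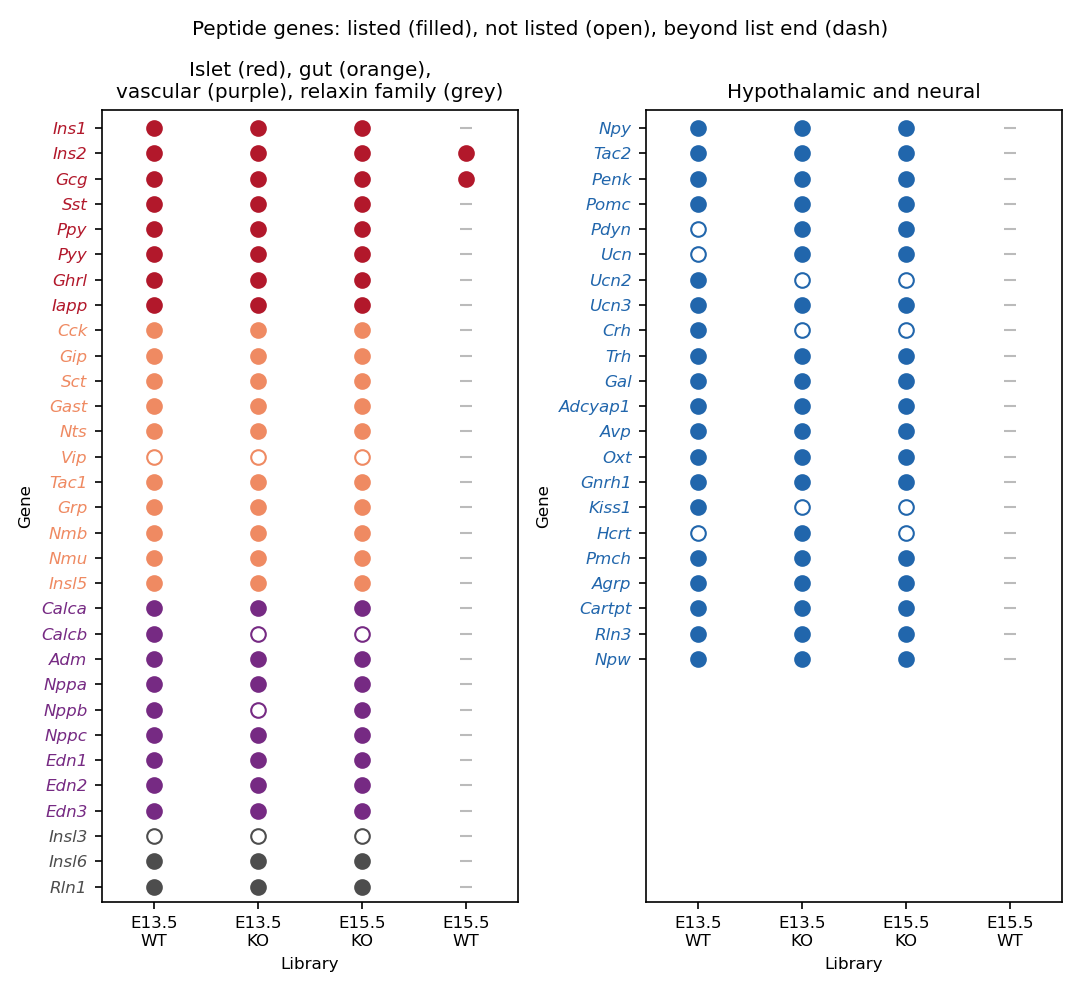
Listing of each of the 53 peptide genes (rows) in each library (columns), coloured by class. Filled circles are listed, open circles not listed, and dashes mark genes past where the E15.5 WT list stops. Open circles stand for 10 genes, 6 of them hypothalamic and neural.

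The islet hormones did not vary between libraries. Only 8.67% of protein-coding genes were in 1 or 2 complete lists, so nothing particular to these 8 genes is read from that. Ins1 (chromosome 19, 52264297 to 52265476, GRCm38) and Ins2 (chromosome 7, 142678656 to 142743381), the mouse insulin genes, were listed in all 3 complete libraries, and so were Gcg (chromosome 2, 62474530 to 62483650), which encodes glucagon and the glucagon-like peptides, and Sst (chromosome 16, 23889573 to 23890958), which encodes somatostatin. Ppy, the pancreatic polypeptide gene, and Pyy, the peptide YY gene, are neighbours 5356 bp apart on chromosome 11, and both were in all 3 lists. Ghrl, which encodes the appetite hormone ghrelin, and Iapp, which encodes the amyloid polypeptide that beta cells release with insulin, were as well. Ins2 and Gcg were also in the E15.5 WT list, which held 89.2% of the protein-coding genes in the stretch it covers. These 2 genes are therefore the members with a listing in all 4 libraries, and the genotypes could be set side by side at E15.5 for no other member. Ins1 and Ins2 are closely similar copies, so reads could be split between them by the counting, and 15.7% of the exonic bases of Ghrl are shared with Gm44033 on the opposite strand, which was listed in the same 3 libraries.

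Of 29 genes for prohormone processing and granules, 28 were in all 3 complete lists under their own symbols, and 0 differed between libraries. Few genes differed at all: 6.08% of protein-coding genes between the E13.5 libraries and 7.57% between the KO ages, so nothing particular to this list is read from the 0. Among the 28 were Pcsk1 and Pcsk2, the convertases of the regulated pathway, Cpe, Pam, which amidates peptide ends, Chga and Chgb, the granins of the granule core, and Mboat4, the acyltransferase that octanoylates ghrelin. The other, Ece2, an endothelin-converting enzyme, has its identifier in all 3 under the symbol Ece2_2, so by identifier 29 of 29 were listed. All 12 regulators of endocrine progenitors and islet cells, among them Neurog3, Neurod1, Pax4 and Mafa, were in each list. Of protein-coding genes 72.8% were in all 3, and nothing particular to these 12 is read from their listing.

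Gut peptides were also even, with 1 member not listed, and the limit given for the islet hormones holds here too. Gip, Sct, Gast, Cck and Nts, which encode the incretin GIP, secretin, gastrin, cholecystokinin and neurotensin, stood in all 3 lists. So did Insl5, a peptide of colonic enteroendocrine cells, Nmb and Grp of the bombesin-like family, Nmu (neuromedin U) and Tac1, the precursor of substance P. Vip (chromosome 10, 5639218 to 5647617) encodes vasoactive intestinal peptide, a transmitter of enteric neurons, and was in none, while both of its receptors, Vipr1 and Vipr2, were in all 3. The exons of Nmb share 163 of 793 bases (20.6%) with Sec11a on the same strand, which was listed in the same libraries, so the listing of Nmb is uncertain. Of 7 gut and stomach epithelium markers, 7 were in E13.5 WT and 5 in each KO list. Between the E13.5 lists 2 differed (28.6%, against 6.08% of protein-coding genes), and with so few markers nothing is read from that. The KO lists did not lack the same markers: Tff1 was missing from both, Muc5ac from E13.5 KO only and Sox2 from E15.5 KO only. The part of these markers in the gut peptide listing was not tested.

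**Figure D2:**
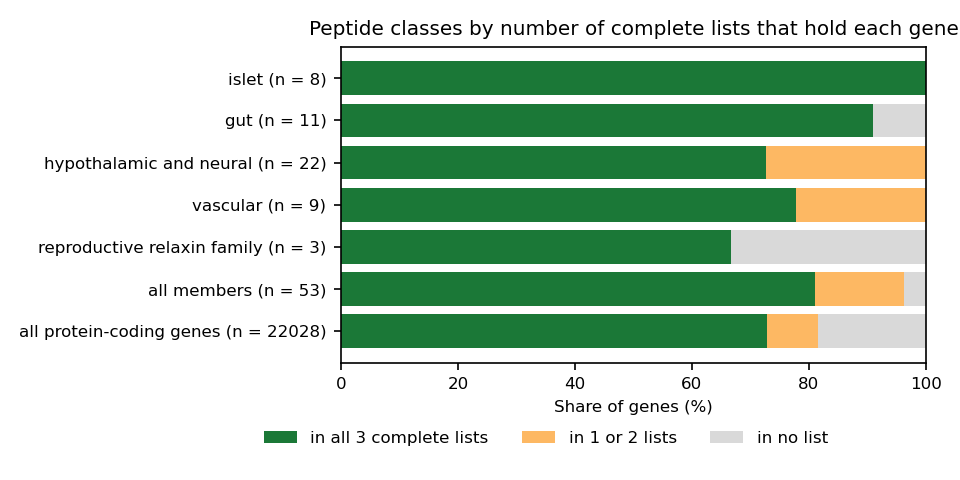
Share of the genes of each class (horizontal axis, %) held by all 3 complete lists, by 1 or 2, or by none, with all protein-coding genes in the bottom bar. Listing in 1 or 2 lists occurs in the hypothalamic and neural class (27.3%) and the vascular class (22.2%). Members are matched by symbol, which counts Kiss1 as listed.

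Hypothalamic and neural peptides made up 6 of the 8 members that varied between lists, or 27.3% of the class. Of all annotated protein-coding genes 8.67% were in 1 or 2 lists. That share is taken over all annotated genes, and 18.5% of these were in no list. By symbol this class had 0 members in no list, so the shares have unlike bases. The class was not set against genes of like span. Of the 22 members, 16 were in all 3 lists. Among them were the hypothalamic releasing hormones Trh and Gnrh1, the neurohypophyseal hormones Avp and Oxt, and the appetite peptides Npy, Agrp, Pomc, Cartpt and Pmch. The enkephalin precursor Penk, Gal (galanin), Adcyap1 (PACAP), Tac2 (neurokinin B), Rln3, Npw and Ucn3, a urocortin known from beta cells, made up the rest. Avp and Oxt lie 3565 bp apart on opposite strands of chromosome 2. Of the exonic bases of Pmch, 58.1% are shared with Parpbp on the opposite strand, and whether the counting used strand is not stated, so that listing is uncertain. The 6 that varied were Pdyn, Ucn, Hcrt, Ucn2, Crh and Kiss1. Kiss1 varied by symbol only, and the identifier annotated as Kiss1 was in no list.

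At E13.5 the comparison of KO with WT asks which peptide genes were listed with and without Setd2 deletion. Of the 51 members in either list, 43 were in both, 3 were in KO only (5.88%) and 5 in WT only (9.80%). Over the 17668 protein-coding genes in either list, 3.17% were in KO only and 2.91% in WT only. Counted in either direction, 8 of 51 members (15.7%) differed, against 6.08% of protein-coding genes. One of the 5, Kiss1, is in the list by symbol and not by identifier. By identifier 4 of 50 members were in WT only and 7 differed. Peptide genes are short, and short genes were more often in 1 list only. Among genes that span up to 10 kb, 4 of 43 members in either list were in WT only (9.30%, against 4.98% of such protein-coding genes). In KO only were 2 (4.65%, against 5.51%), a share near that of other short genes. No islet, gut or relaxin-family member differed. With 6.08% of protein-coding genes differing and these classes small, nothing particular to them is read from that.

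The 3 members listed in KO and not in WT at E13.5 were neural peptides. Pdyn (chromosome 2, 129686565 to 129699844) encodes prodynorphin, the precursor of the dynorphin opioids, and was in both KO lists. Ucn (chromosome 5, 31138063 to 31138829) encodes urocortin, a relative of corticotropin-releasing hormone, and was also in both KO lists. Of all protein-coding genes, 1.04% had this pattern, listed in both KO libraries and not in E13.5 WT. Hcrt (chromosome 11, 100761069 to 100762931), the precursor of the wake-promoting orexins, was in E13.5 KO and in neither of the other complete lists. The nearest protein-coding gene to Ucn, Trim54, lies 432 bp away on the opposite strand and had the reverse pattern, present in the WT list of E13.5 and missing from both KO lists.

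The 5 members listed in WT and not in KO at E13.5 were 3 neural and 2 vascular peptides. Crh (chromosome 3, 19693401 to 19695396) encodes corticotropin-releasing hormone, which drives the pituitary stress response, and Ucn2 (chromosome 9, 108986010 to 108987164) another urocortin. Kiss1 encodes kisspeptin, which stimulates the neurons that release gonadotropin-releasing hormone. Calcb (chromosome 7, 114718643 to 114723365) encodes the beta form of the vasodilator calcitonin gene-related peptide. These 4 were in E13.5 WT alone, a pattern of 1.58% of protein-coding genes. Nppb (chromosome 4, 147985788 to 147987205), the B-type natriuretic peptide gene of the heart, stood in WT at E13.5 and in KO at E15.5.

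The listing of Kiss1 is uncertain. The entry named Kiss1 in the list of E13.5 WT carries the identifier ENSMUSG00000115958 (chromosome 1, 133309827 to 133329722), which the annotation used here names Gm28040, a predicted gene. The identifier that this annotation names Kiss1, ENSMUSG00000116158 (133321875 to 133329901, same strand), was in no list. It shares 498 of the 741 exonic bases of the listed entry (67.2%). The listed entry also shares 85 exonic bases (11.5%) with Golt1a on the same strand, which was in all 3 lists. A further 1 also named Gm28040, ENSMUSG00000098306, shares 583 (78.7%) and was in none. Span and shared bases of Kiss1 are those of the listed entry. None of the other 7 members that varied shares exonic bases with another annotated gene. Calca and Calcb are similar copies 82285 bp apart, and reads could be split between them. Calca was in all 3 lists.

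**Figure D3:**
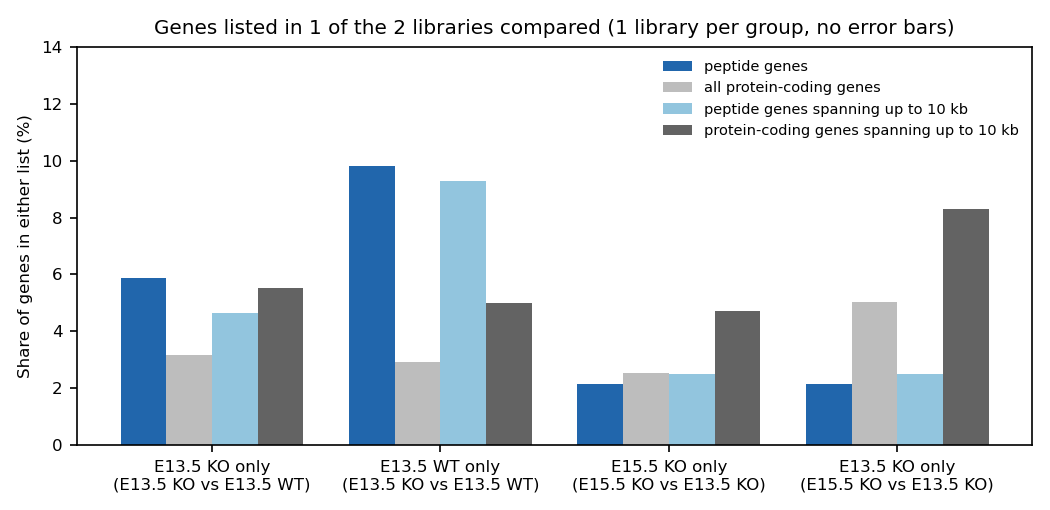
Share of genes in either list (vertical axis, %) that stood in 1 of the libraries compared, for each comparison and direction, in peptide genes and in protein-coding genes of any span and of up to 10 kb. Bars carry no error because each group has 1 library. The tallest bars are the peptide genes in E13.5 WT only, at 9.80% and 9.30%.

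The corticotropin-releasing hormone family, grouped here after the lists were seen, shows the variation within 1 set of related ligands. Crh and Ucn2 were in E13.5 WT only, Ucn in both KO lists only, and Ucn3 in all 3. Their receptors were unequal too. Crhr1, the receptor of Crh and urocortin, was in both KO lists and not in E13.5 WT. Crhr2, which binds the urocortins, was in all 3. The library that listed Crh did not list Crhr1, and both libraries that listed Crhr1 listed Ucn. With 1 library per group and the family picked afterwards, no link between ligand and receptor is read from this.

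Start-site sequences of 3 of the 8 members that varied are shown. They set Ucn, with the full cyclic AMP response element (CRE, TGACGTCA), beside Pdyn and Hcrt. Pdyn and Hcrt shared its listing in E13.5 KO and lack these exact letters. Vip is added as a member in no list and Gcg as an islet hormone in every list. Each sequence is the 200 bases before the RefSeq start on GRCm38.p6, read 5' to 3' on the gene's strand. Capitals mark TGACGTCA or a TATA motif (TATAAA, either strand). Only these exact letters were searched. Vip holds tgacgtct, which differs from the CRE form in its last letter and was not counted. The regions are chr5:31138896-31139095 (minus) for Ucn, chr2:129699939-129700138 (minus) for Pdyn, chr11:100762932-100763131 (minus) for Hcrt, chr10:5639018-5639217 (plus) for Vip and chr2:62483654-62483853 (minus) for Gcg.
Ucn: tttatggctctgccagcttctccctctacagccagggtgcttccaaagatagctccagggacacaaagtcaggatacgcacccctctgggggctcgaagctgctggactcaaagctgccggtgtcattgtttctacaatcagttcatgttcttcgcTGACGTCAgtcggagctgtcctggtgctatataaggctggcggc
Pdyn: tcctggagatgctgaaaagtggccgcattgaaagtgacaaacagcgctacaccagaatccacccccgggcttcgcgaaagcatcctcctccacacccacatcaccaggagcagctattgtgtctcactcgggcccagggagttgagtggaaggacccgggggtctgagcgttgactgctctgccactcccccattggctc
Hcrt: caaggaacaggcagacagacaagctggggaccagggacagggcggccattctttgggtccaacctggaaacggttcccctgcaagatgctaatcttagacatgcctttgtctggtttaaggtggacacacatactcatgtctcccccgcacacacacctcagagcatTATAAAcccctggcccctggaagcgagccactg
Vip: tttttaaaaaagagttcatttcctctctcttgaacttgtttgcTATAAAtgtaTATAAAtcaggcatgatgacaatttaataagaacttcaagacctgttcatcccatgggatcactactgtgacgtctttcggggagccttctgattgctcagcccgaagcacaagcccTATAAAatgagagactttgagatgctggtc
Gcg: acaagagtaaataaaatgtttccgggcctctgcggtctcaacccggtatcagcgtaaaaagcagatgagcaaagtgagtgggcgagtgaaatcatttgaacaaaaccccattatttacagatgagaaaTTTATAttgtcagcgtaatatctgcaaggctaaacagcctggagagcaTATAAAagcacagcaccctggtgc
In these windows the CRE of Ucn began 44 bases before the start, the TATA motif of Hcrt 33 bases before it, and that of Gcg nearest the start 24 bases before it. Vip held 3 TATA motifs, at 157, 147 and 30 bases before the start. The Pdyn window held neither motif.

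RefSeq promoters of 250 bases before to 50 after the start matched 43 of the 53 members. Those not matched were Ins2, Penk, Ucn2, Crh, Gnrh1, Agrp, Insl6, Calcb, Grp and Npw. TGACGTCA, which reads the same on both strands, was in 3 of the 43 (6.98%), Sst, Ucn and Cartpt, against 2.03% of 27025 genes with a promoter. TATAAA on either strand was in 15 of the 43 (34.9%), against 15.7% of those genes. By class it was in 2 of 7 islet, 4 of 10 gut, 5 of 16 hypothalamic and neural, 3 of 8 vascular and 1 of 2 relaxin-family promoters. TTCAGCACC, part of the element bound by the neuronal repressor REST, was in 0 of the 43 on either strand and in 0.433% of all. Of the members with TGACGTCA, Sst and Cartpt were in all 3 lists and Ucn in the KO lists only. Near forms of the CRE were not searched, so a member without these letters may still hold one. GC content of these windows had a median of 54.5% in the 36 members in all 3 lists (39 to 69.3%) and 55.7% in the 7 others (41.7 to 61.3%).

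Vascular peptides were in all 3 lists apart from Calcb and Nppb. Edn1, Edn2 and Edn3, the endothelins, Adm (adrenomedullin), Calca, and Nppa and Nppc, the A-type and C-type natriuretic peptides, were in each. Nppa lies 13516 bp from Nppb on the same strand. Of the exonic bases of Nppa, 61.5% are shared with Gm13054 on the opposite strand, which was in all 3 lists, so the listing of Nppa is uncertain. The receptors of these ligands were even: Ednra, Ednrb, Calcrl, Ramp1, Npr1, Npr2 and Npr3 were in all 3, including the libraries without Calcb or Nppb. Of protein-coding genes 72.8% were in all 3, so nothing particular to these receptors is read from that. Endothelial markers were at 7 of 7 in both E13.5 lists and 5 of 7 in E15.5 KO, without Cdh5 and Tie1. Between the KO ages 28.6% of these few markers differed, against 7.57% of protein-coding genes. Their part in the listing of vascular peptides was not tested.

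Of the relaxin-family members, Insl6 and Rln1, neighbours 5813 bp apart on chromosome 19, were in all 3 lists. Insl3 (chromosome 8, 71689214 to 71690575), the Leydig cell peptide of testis descent, was in none. It shares 404 of its 623 exonic bases (64.8%) with Jak3 on the same strand, and Jak3 was in all 3 lists, so the missing entry is uncertain. Rxfp2, the Insl3 receptor, was in all 3.

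The KO libraries of both ages address which peptides were listed earlier or later in development. Of 47 members in either list 45 were in both. Nppb was in E15.5 KO only (2.13%, against 2.55% of the 17602 protein-coding genes in either) and Hcrt in E13.5 KO only (2.13%, against 5.03%). In all, 2 of 47 members differed (4.26%), against 7.57% of protein-coding genes. The E13.5 KO list enters both comparisons, so Hcrt and Nppb count in each. Neuron markers were at 12 of 12 in both E13.5 lists and 10 of 12 in E15.5 KO. Dbh, the dopamine beta-hydroxylase gene, was not in the E15.5 KO list and was in that of E15.5 WT. Of 8 regulators of hypothalamic development, 4 were listed in E13.5 WT, 5 in KO at E13.5 and 3 in KO at E15.5, and 2, Otp and Nkx2-1, were in none. Rax was in the KO lists only, Nr5a1 in E15.5 KO only, and Hmx2, Hmx3 and Lhx9 in both E13.5 lists only. The part of these cells in the neural peptide listing was not tested.

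Most members are short genes, and 45 of the 53 span up to 10 kb. The 43 members in all 3 lists spanned a median of 4630 bp (804 to 70696) and the 8 in 1 or 2 lists a median of 1929.5 bp (767 to 19896), against medians of 23604 and 10792 bp in protein-coding genes with the same listing. Exonic length differed less between the members, with medians of 1042 and 968 bp. The ranges overlap: Ucn, the shortest member, varied, and Sct, at 804 bp, was in all 3 lists.

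**Figure D4:**
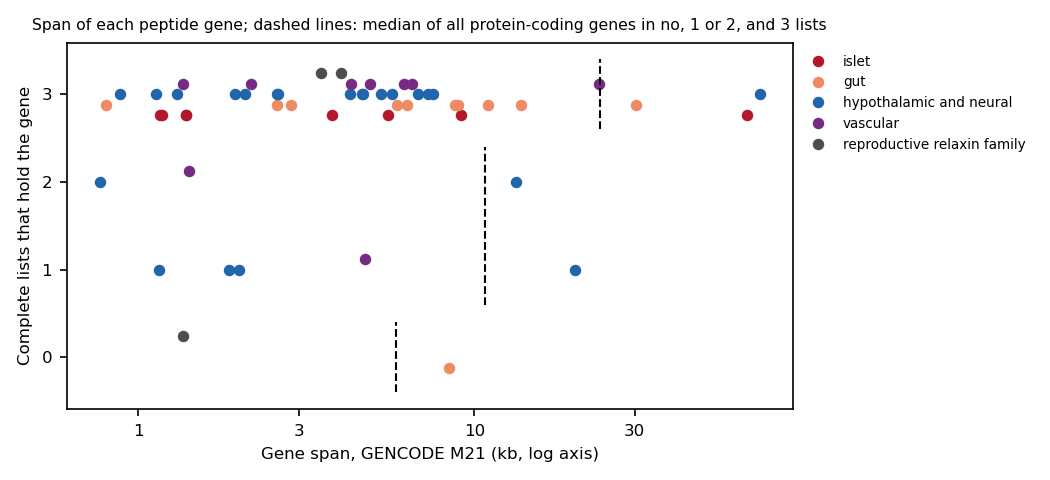
Gene span (horizontal, kb, log axis) of each peptide gene against the number of complete lists that hold it (vertical, points offset by class), with dashed lines at the medians of all protein-coding genes. Varying members run from 767 to 19896 bp, inside the 767 to 70696 bp range of the set.

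Receptors of the peptides were not listed evenly. Of 69 receptor genes and receptor-modifying Ramp genes, 56 were listed in E13.5 WT, 52 in KO at E13.5 and 51 in KO at E15.5. In all 3 were 43, and 6 were in none. Of protein-coding genes, 77.7%, 77.9% and 75.9% were in these lists, 72.8% in all 3 and 18.5% in none. No trend between libraries is read from the receptor counts. At E13.5, 5 were in KO only (8.20%) and 9 in WT only (14.8%), together 23.0%, where protein-coding genes stood at 6.08%. In KO only were Glp1r, the GLP-1 receptor of beta cells, Npy5r, Crhr1, Nmbr and Npbwr1. In WT only were Npy2r, Mc2r, Mc5r, Trhr, Avpr2, Hcrtr2, Rxfp1, Rxfp3 and Nmur2. Between the KO ages, 9 of 56 differed (16.1%, against 7.57%). Ntsr2, Mc5r, Avpr2 and Nmur1 were at E15.5 only, and Glp2r, Npy4r, Tacr2, Avpr1a and Npbwr1 at E13.5 only.

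Ligand and receptor listings were set side by side for the 51 members with a receptor on that list. A member and at least 1 of its receptors were both listed for 40 members in E13.5 WT, 37 in KO at E13.5 and 36 in KO at E15.5. No member had both itself and all its receptors missing from a list. Each library listed 46 to 48 of the 53 members and 51 to 56 of the 69 receptor genes. Nothing particular to the pairs, or to a library, is therefore read from these counts. Ghrl, Insl5 and Gnrh1 were listed in every complete library without their receptors: Ghsr, Rxfp4 and Gnrhr were in none of the 3. The others in none were Sstr4, Mc3r and Trhr2. Npy4r, the receptor of pancreatic polypeptide, was not in E15.5 KO, where Ppy was. Insr and Gcgr, the insulin and glucagon receptors, were in all 3. Pdyn was in the KO lists only and its receptor Oprk1 in all 3, and the entry named Kiss1 was in E13.5 WT only and Kiss1r in all 3. Hcrt was in E13.5 KO, where Hcrtr1 was listed and Hcrtr2 was not.

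**Figure D5:**
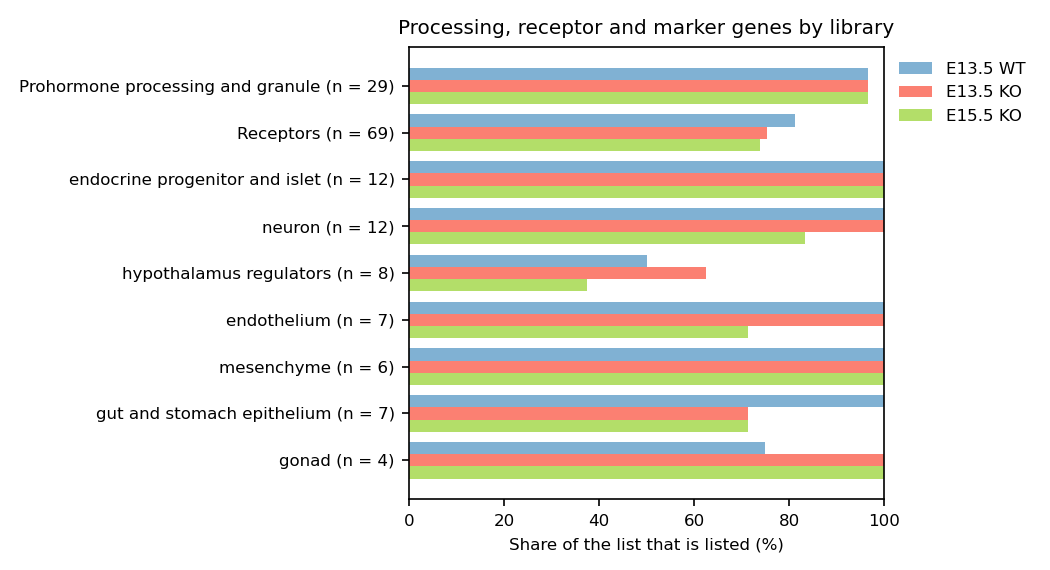
Share of each list that is listed (horizontal axis, %) in the 3 complete libraries, for prohormone processing genes, receptors and cell type markers. Processing genes, matched by symbol, and islet regulators stand level across libraries, at 28 of 29 and 12 of 12. Receptors run from 51 to 56 of 69. Of all protein-coding genes, 75.9% to 77.9% were listed per library, and 6.08% or 7.57% differed in the comparisons.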

How the data were processed

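Single-cell RNA sequencing was done on 4 libraries, 1 per group, with groups taken from the sample titles. The files the authors deposited hold an Ensembl identifier and a symbol per line and no values. Per the submitters' processing notes Seurat and the mm10 build were used. The sources used here give no aligner, annotation release, filter or criterion for listing a gene. Members were found by exact symbol. Coordinates, gene types, spans and overlaps were read from release M21 of GENCODE (GRCm38, which mm10 names) and promoters from RefSeq on GRCm38.p6. Of 29652 identifiers, 48 were not in that annotation. Shares of protein-coding genes are over annotated genes for a library and over genes in either list for a comparison. Counting steps were tested on simulated lists. Members, classes, receptor pairs and other lists were chosen with earlier results of these data known. All members were to be accounted for, with islet members and members not in every complete list described singly, and of other lists every gene not in all complete lists was to be named. Some genes that this rule would name are left out. Gonad markers (Amh, Star, Ddx4 and Cyp17a1) were at 3 of 4 in E13.5 WT and 4 of 4 in both KO lists, and mesenchyme markers at 6 of 6 in each. Python 3.11.15 and matplotlib 3.10.9 were used. Alternatives were matching by identifier, merged suffixes, other classes and other backgrounds.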

Additional observations from a re-analysis of the deposited data

How the results depend on the processing

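Matching by Ensembl identifier gave 47 members in E13.5 WT in place of 48, and 4 in E13.5 WT only in place of 5, because the entry named Kiss1 carries another gene's identifier in the annotation used. The other counts of listed members, and of members in 1 library only, were the same by identifier. In the hypothalamic and neural class, Kiss1 passes by identifier from the varying members to those in no list. Merging suffixes and older symbols changed none of these counts. Restricting the lists to identifiers that the E15.5 WT list covers left 2 members in each of the 3 complete lists, because that stretch holds only Ins2 and Gcg. Moving Npy and Ucn3 to the islet class, Calca and Calcb to the neural class and the relaxin family to the vascular class gave 10 of 10 islet, 15 of 22 neural and 8 of 10 vascular members in all 3 lists, and left no separate relaxin class to count. With all annotated genes as background, 9.71% were in E13.5 KO only and 6.61% in E13.5 WT only. With named protein-coding genes these were 2.65% and 2.61%. The limit of 10 kb on span was added after the data were seen. No paired analysis was possible because the groups hold 1 library each, and no library could be left out of a group.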
